A study of Mus musculus with 18 samples.

Results

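The proteasome is the large protease that degrades proteins marked with ubiquitin. Its barrel-shaped 20S core is built of 2 outer rings of alpha subunits and 2 inner rings of beta subunits, 3 of which (encoded by Psmb5, Psmb6 and Psmb7) carry the active sites. The 19S regulatory particle caps the core, with a ring of ATPases that unfolds substrates and non-ATPase subunits that bind ubiquitin, remove it and form the lid. Immune cells can exchange the 3 active subunits for the immunoproteasome subunits Psmb8, Psmb9 and Psmb10, and plasma cells, which secrete large amounts of antibody, are known to be sensitive to proteasome inhibitors. The members were all genes of the deposited expression table whose symbol begins with Psm, a letter from a to g and a digit, without the 3 immunoproteasome genes. They were 46 of 21761 genes, made up of 8 genes of 20S alpha subunits, 8 of 20S beta subunits, 6 of 19S ATPases, 11 of 19S non-ATPase subunits, 7 of assembly factors, 5 of activators and an inhibitor, and Psmc3ip. Psmc3ip shares the letters but encodes a meiotic recombination factor and no subunit.

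RNA was sequenced from naive B cells of lymph nodes (nB, sorted as B220+ GL7- Fas-), from germinal center B cells specific for the antigen (GCB, PE+ with GL7+ Fas+ among B220+) and from CD138+ plasma cells of bone marrow (BMPC), with 3 libraries for each cell type and genotype, 18 in all. Dnmt3-deficient mice were Dnmt3afl/fl Dnmt3bfl/fl with 1 copy of a Cre allele, and their Dnmt3-sufficient littermates were Dnmt3afl/fl Dnmt3bfl/fl without it, so that all groups carried both floxed alleles and the sufficient mice lacked Cre. The deletion covers the B lineage and not plasma cells alone. The strain was labelled B6;129S4-Dnmt3atm3.1Enl Dnmt3btm5.1Enl/Mmnc, and the mice were 8 to 12 weeks old at the start of experiments. The nB mice were not immunized, whereas GCB and BMPC were collected 30 days after immunization with phycoerythrin in complete Freund's adjuvant, so cell type and immunization cannot be told apart for nB. Each GCB library was a pool of 2 mice, and each nB or BMPC library came from 1 mouse. For nB and GCB each genotype had 2 female libraries and 1 male, and for BMPC 1 female and 2 male.

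Reads on genes came to 6692516 to 8987922 per nB library, 7644544 to 8903872 per GCB library and 1355231 to 3803197 per BMPC library. Summed FPKM (reads scaled to exon length and to the reads on listed genes) of 7 GCB markers was 1049 to 1161 in GCB and 18.5 to 83.5 in BMPC. Summed FPKM of 7 BMPC markers was 17130 to 48268 in BMPC and at most 1006 elsewhere, led by Jchain. BMPC libraries also held RNA of 4 early B cell genes (308 to 613 FPKM summed, 0 to 22.5 in nB and GCB) and of 4 erythroid genes (149 to 2194 FPKM, 0.352 to 218 elsewhere). They held 7 neutrophil genes as well (9.37 to 582 FPKM, all at 0 in nB and GCB). Of the early B cell genes, Dntt had 305 to 581 FPKM in BMPC, Vpreb1 0 to 55.7, Igll1 1.84 to 34.2 and Rag1 0 to 2.25. Summed FPKM of 5 T cell genes was 53.5 to 198 in BMPC, 25.3 to 71.4 in nB and 0.569 to 5.56 in GCB. That of 5 macrophage genes was 40.5 to 168 in BMPC, 1.70 to 73.9 in nB and 10.95 to 19.7 in GCB. Dnmt3a totals over all exons overlapped between genotypes in each cell type. Those of Dnmt3b overlapped in nB and BMPC and were higher in all 3 Dnmt3-deficient GCB libraries (0.744 to 1.10 FPKM, 0 to 0.676 in Dnmt3-sufficient), and such totals include exons outside the floxed part. In such bulk libraries fewer expressing cells and less RNA per cell cannot be told apart.

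Promoter sequence from RefSeq (build GRCm38.p6) was matched by symbol to 38 of 46 members. The 6 promoters printed here belong to the active-site subunits Psmb5 and Psmb6 and to members of each complex that stand out in the comparisons below, the core subunit Psma1, the ATPase Psmc6 and the lid subunits Psmd11 and Psmd12. Each runs over the 250 bases before the annotated start, 5′ to 3′ on the strand of the gene, and capitals mark matches on either strand to the antioxidant response core TGACNNNGC, which Nfe2l1 and Nfe2l2 are known to bind, or to CCAAT.
Psmb5, chr14:54617996-54618245, minus strand: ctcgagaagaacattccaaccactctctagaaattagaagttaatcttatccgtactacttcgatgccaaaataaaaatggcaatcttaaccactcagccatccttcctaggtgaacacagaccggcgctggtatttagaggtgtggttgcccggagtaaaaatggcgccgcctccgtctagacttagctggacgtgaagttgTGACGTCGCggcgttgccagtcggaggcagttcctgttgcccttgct
Psmb6, chr11:70525107-70525356, plus strand: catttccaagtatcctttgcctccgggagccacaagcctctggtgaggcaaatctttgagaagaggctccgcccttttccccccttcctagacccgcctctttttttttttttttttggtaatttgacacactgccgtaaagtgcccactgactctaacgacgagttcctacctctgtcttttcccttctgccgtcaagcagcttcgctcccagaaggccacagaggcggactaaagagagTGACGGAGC
Psma1, chr7:114276117-114276366, minus strand: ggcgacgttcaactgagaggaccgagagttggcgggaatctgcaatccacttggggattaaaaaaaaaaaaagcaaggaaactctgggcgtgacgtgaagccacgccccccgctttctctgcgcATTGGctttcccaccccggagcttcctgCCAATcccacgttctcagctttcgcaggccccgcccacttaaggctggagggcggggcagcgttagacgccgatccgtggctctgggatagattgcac
Psmc6, chr14:45329574-45329823, plus strand: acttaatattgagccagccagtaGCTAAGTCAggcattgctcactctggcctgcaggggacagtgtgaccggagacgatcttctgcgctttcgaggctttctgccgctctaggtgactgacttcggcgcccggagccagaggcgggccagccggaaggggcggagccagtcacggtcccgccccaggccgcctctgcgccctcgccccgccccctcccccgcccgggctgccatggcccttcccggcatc
Psmd11, chr11:80428365-80428614, plus strand: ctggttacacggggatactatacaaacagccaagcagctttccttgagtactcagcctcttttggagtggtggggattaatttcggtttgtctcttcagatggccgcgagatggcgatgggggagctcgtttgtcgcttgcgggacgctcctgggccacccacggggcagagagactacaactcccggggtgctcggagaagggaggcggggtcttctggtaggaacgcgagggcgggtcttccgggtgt
Psmd12, chr11:107479278-107479527, plus strand: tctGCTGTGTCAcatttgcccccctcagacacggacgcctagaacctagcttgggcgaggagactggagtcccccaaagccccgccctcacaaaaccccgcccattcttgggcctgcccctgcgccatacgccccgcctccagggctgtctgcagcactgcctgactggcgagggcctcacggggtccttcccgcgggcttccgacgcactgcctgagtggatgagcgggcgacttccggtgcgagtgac
In the 300-base windows (250 before to 50 after the start), TGACNNNGC occurred in 6 of 38 members (15.8%), against 12.5% of all 27025 genes with a promoter and 15.3% of the 8738 with one that were tested here. CCAAT occurred in 14 of 38 members (36.8%), against 37.9% of all genes. Neither share stood far from that of all promoters. Psmb5 and Psmb6 held the response core 47 and 9 bases before the start, Psmc6 and Psmd12 held it further upstream, and Psma1 held CCAAT, while the Psmd11 window held neither. A match is a description of letters, not a binding site.

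Nearly all members were expressed. Of the 46 members, 45 had more than 1 FPKM in at least 2 libraries and were tested, of 11522 genes tested in all. The exception was Psmb11, the beta subunit of thymic epithelium, which was below 1 FPKM in every library. Psma8, the testis alpha subunit, was at 0 in 15 of 18 libraries and at 34 reads or fewer in the others. The remaining 14 core genes had medians per library of 159 to 231 FPKM in nB libraries, 304 to 399 in GCB libraries and 356 to 708 in BMPC libraries. The 17 genes of the 19S particle had medians of 68.4 to 102 FPKM (nB), 184 to 211 (GCB) and 84.4 to 133 (BMPC). As the heat map of all members shows, both complexes were higher in each GCB library than in each nB library, and in BMPC the core was high while the median 19S gene was near its nB level. Summed over the 6 ATPases, FPKM was 718 to 949.7 in nB, 1409 to 1549 in Dnmt3-sufficient BMPC and 959 to 1081 in Dnmt3-deficient BMPC. For the 11 non-ATPase genes the sums were 739 to 908.7 in nB and 723 to 1110.5 in BMPC, with overlap.

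**Figure D1:**
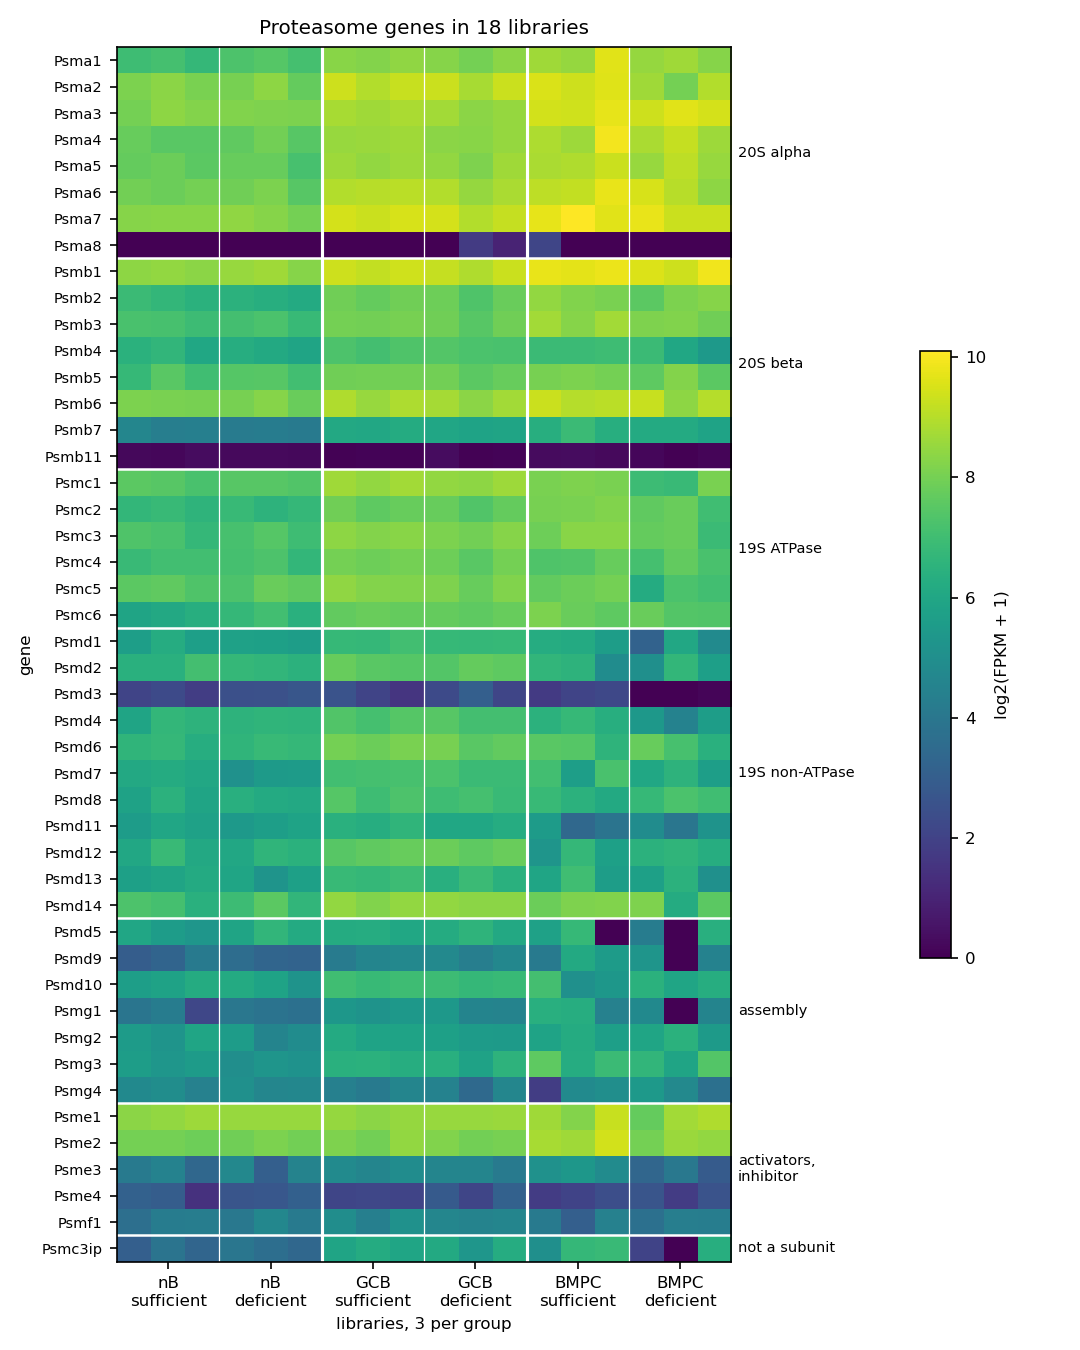
Level of the 46 proteasome genes (rows, grouped by role) in the 18 libraries (columns, 3 per group), as log2(FPKM + 1) in colour. Core genes brighten from nB to GCB and BMPC, Psma8 and Psmb11 stay near 0, and Psmd3 is near 0 in the 3 Dnmt3-deficient BMPC libraries.

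Subunits that occur once per ring were not equal in RNA level. Within the core, mean FPKM over 6 libraries ran from 19.1 (Psmb7) to 347 (Psmb1) in nB, an 18.1-fold range. FPKM of Psmb7 rests on 3230 exon bases in the deposited table, against 1214 in GENCODE vM1. In GCB it ran from 64.4 (Psmb7) to 638 (Psma7), and in BMPC from 79.7 (Psmb7) to 826 (Psmb1), a 10.4-fold range. The 6 ATPases lay closer together, within 2.14-fold in nB, 1.82-fold in GCB and 1.37-fold in BMPC. Among non-ATPase subunits Psmd14, the enzyme that removes ubiquitin chains, was highest in all 3 cell types (131, 334 and 224 FPKM in nB, GCB and BMPC) and Psmd3 lowest (4.07, 4.10 and 1.55 FPKM). All 46 members together took 0.691% to 0.827% of the reads on listed genes in nB libraries. The share was 1.19% to 1.51% for GCB and 1.16% to 1.67% for BMPC, so the GCB and BMPC ranges both lay above that of nB. These totals count only genes of the deposited table, in which the immunoglobulin gene Ighd was absent. The paper reports a far larger immunoglobulin share of mRNA in BMPC than in nB or GCB. How such reads would move the BMPC shares, FPKM and changes was not tested.

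The step from nB to GCB asked which genes change on activation. Proteasome genes were higher in GCB, in the core and in the 19S particle by similar amounts. Of 45 members tested in the Dnmt3-sufficient libraries, 15 rose and 0 fell, that is, had a limma adjusted p of at most 0.05 and moved by 1 or more in log2(FPKM + 1), against 7.22% of all genes called higher and 6.93% called lower. The median change was 0.93 over the members and -0.11 over all genes tested. By role, 5 of 8 alpha, 2 of 7 beta, 4 of 6 ATPase and 4 of 11 non-ATPase genes rose, and 0 of 7 assembly and 0 of 5 activator and inhibitor genes. The Dnmt3-deficient libraries had 9 members that rose and 0 that fell, against 6.31% and 6.61% of all genes, with a median change of 0.93 over the members and -0.13 over all. The 9 became 5 without nB Dnmt3-deficient replicate 3 or GCB Dnmt3-deficient replicate 1 or 3, and 15 without GCB Dnmt3-deficient replicate 2.

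The levels of 33 of 45 members did not overlap between the cell types, with all 6 GCB libraries of both genotypes above all 6 nB libraries, as was so for 13.2% of all genes. For 0 members all GCB libraries lay below nB (14.4% of all genes). These 33 included 13 of the 14 core genes that were expressed, all but Psma3, and 15 of 17 genes of the 19S particle, all but Psmc5 and Psmd3.

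Among the members that passed, the 5 with the largest rise were Psmb7, Psmc6, Psmd14, Psmd6 and Psma1. Larger changes that were not called were found for Psmc3ip (2.62) and among the assembly genes (up to 1.86). Psmb7, the subunit with trypsin-like activity, had 24, 19 and 19.5 FPKM in the Dnmt3-sufficient nB libraries, and 67.1, 66.4 and 73.7 in those of GCB. It rose by 1.69 ± 0.26 (SE), adjusted p = 0.000214, on the log2(FPKM + 1) scale used for all changes. The Dnmt3-deficient libraries, at 17.6, 18 and 16.9 in nB and 62.3, 57.5 and 59.6 in GCB, were apart as well (1.72, adjusted p = 0.000201). Psmc6, an ATPase of the base, was at 59.2, 66.9 and 79.4 FPKM in nB and 202, 222 and 211 in GCB. Its rise was 1.62 ± 0.21 (SE), adjusted p = 4.21e-05, and in the Dnmt3-deficient libraries the change was 0.96 (adjusted p = 0.00458), just under the minimum, from 106, 131 and 84.9 to 211, 193 and 216 FPKM. No GCB library of Psmb7 or Psmc6 came within the range of nB.

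Psmd14 had 155, 139.5 and 84.3 FPKM in the Dnmt3-sufficient nB libraries, against 352, 294 and 356 in those of GCB, a rise of 1.44 ± 0.37 (SE), adjusted p = 0.0124, which did not pass without nB replicate 3 (adjusted p = 0.0727). Psmd6, a lid subunit, rose by 1.42 ± 0.31 (SE), adjusted p = 0.00389, from 97.4, 107 and 77.6 to 257, 227 and 268 FPKM. Psma1, an alpha subunit, was at 124, 140.3 and 106 FPKM in nB and 313, 299.9 and 345 in GCB, and rose by 1.37 ± 0.24 (SE), adjusted p = 0.000729. In each of these 3 genes the lowest GCB library was above the highest nB library of either genotype. The other members that rose were Psma2, Psma4, Psma6, Psma7, Psmb2, Psmc1, Psmc2, Psmc3, Psmd8 and Psmd12, by 1.00 to 1.29. The GCB libraries also held more RNA of 6 proliferation markers (1477 to 1684 FPKM summed, 121 to 148 in nB), whose part in these changes was not tested.

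**Figure D2:**
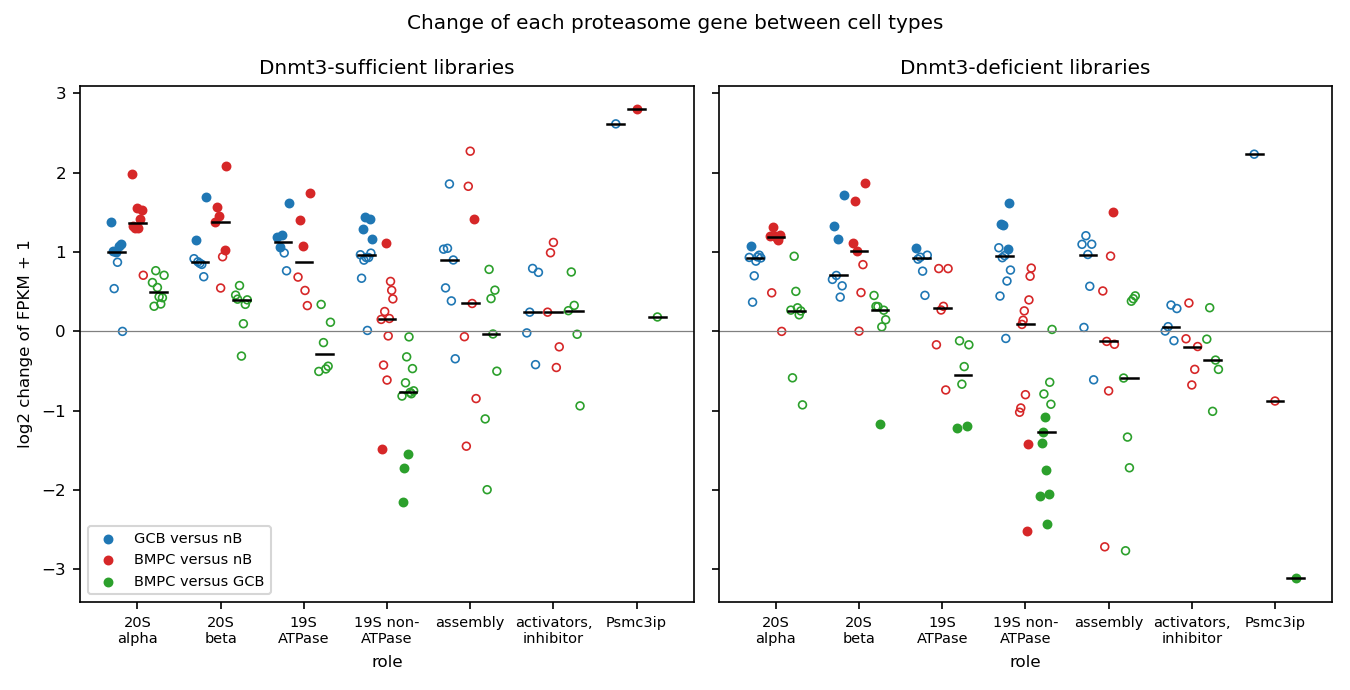
Change of each tested member between cell types, by role, as the difference in log2(FPKM + 1), in Dnmt3-sufficient (left) and Dnmt3-deficient (right) libraries. Filled points passed the test, open points did not, and bars are medians. In the Dnmt3-sufficient panel red points of the core lie above 0 with a median of 1.37, and the 11 green points of the 19S non-ATPase genes lie below 0.

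In plasma cells the core and the 19S particle parted. Against nB in the Dnmt3-sufficient libraries, 18 of 45 members rose and 1 fell, against 9.74% of all genes called higher and 27.6% called lower, with a median change of 0.94 over the members and -0.70 over all genes. Of 15 core genes tested 12 rose and 0 fell, with a median change of 1.37. Of 17 genes of the 19S particle 4 rose (Psmc2, Psmc3, Psmc6 and Psmd14) and 1 fell (Psmd11), with a median of 0.41 (0.88 for the 6 ATPases and 0.16 for the 11 non-ATPase genes). In the Dnmt3-deficient libraries 11 members rose and 2 fell, against 6.85% and 30.6% of all genes. There 10 of 15 core genes rose (median 1.15), while of the 19S genes 0 rose and 2 fell, Psmd3 and Psmd4 (median 0.14). Without Dnmt3-deficient BMPC replicates 1 and 2, both under 2000000 reads, that group was replicate 3 alone. The core median was then 0.94 and the 19S median -0.29.

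Across both genotypes 15 members had all 6 BMPC libraries above all 6 nB libraries, as had 6.01% of all genes. They were 12 core genes, the ATPases Psmc2 and Psmc6, and Psmg3, a chaperone of core assembly. For 0 members all 6 BMPC libraries were below nB (18.8% of all genes). This comparison uses the same nB libraries as that of GCB with nB.

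Psmc3ip had the largest rise, from 7.28, 13.9 and 8.74 FPKM in Dnmt3-sufficient nB to 31.7, 105 and 116 in BMPC (2.80 ± 1.03 (SE), adjusted p = 0.0401). It is no subunit, its call was lost in 14 of 29 alternatives, and 21.2% of its exon bases are shared with Mlx on the other strand. In the Dnmt3-deficient libraries Psmc3ip was at 14.7, 11.6 and 9.36 FPKM in nB and 3.04, 0 and 80.7 in BMPC. That change was -0.88, in the other direction, and was not called. Among subunits Psmb7 rose most, from the nB values above to 80.2, 117 and 80.9 FPKM in BMPC, by 2.09 ± 0.26 (SE), adjusted p = 1.08e-05. Psma1 was at 404, 362 and 800.0 FPKM in BMPC, a rise of 1.99 ± 0.24 (SE), adjusted p = 8.31e-06. Replicate 3 of BMPC stood far above the others in Psma1, and without it the rise was 1.63.

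Psmc6 was at 277, 223 and 196 FPKM in Dnmt3-sufficient BMPC and rose by 1.74 ± 0.21 (SE), adjusted p = 8.10e-06. Psmb2, a structural beta subunit, was at 119, 102 and 87 FPKM in nB and 355, 291 and 267 in BMPC, a rise of 1.56 ± 0.22 (SE), adjusted p = 4.34e-05. In the Dnmt3-deficient libraries Psmb2 was at 89.1, 79.2 and 70.7 in nB and 186, 277 and 305 in BMPC (1.65, adjusted p = 2.94e-05). The BMPC values of both genes exceeded every nB value. Psmd11, a lid subunit, was the member that fell, from 47.1, 61.5 and 53.9 FPKM to 46.2, 9.8 and 14, by 1.48 ± 0.45 (SE), adjusted p = 0.0153. Replicate 1 of BMPC was close to the lowest nB library (without it the change was -2.11), and the call was lost in 5 of 29 alternatives. In the Dnmt3-deficient libraries Psmd11 was at 42, 49.4 and 57.9 in nB and 29.6, 14.5 and 35.2 in BMPC (-0.97, adjusted p = 0.0963).

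Between GCB and BMPC, which share the day of collection after immunization but not the tissue, 0 members rose and 3 fell in the Dnmt3-sufficient libraries, against 6.67% of all genes called higher and 20.9% called lower. The median change was 0.10 over the members and -0.56 over all genes. Of 15 core genes 14 had a positive change (median 0.43), Psma8 with reads in 1 BMPC library among them, and 0 passed. Of 17 genes of the 19S particle 15 had a negative change (median -0.50) and 3 fell. Among the Dnmt3-deficient libraries 0 rose and 11 fell, against 6.14% and 26.1% of all genes, and 9 of the 11 were 19S genes (median of the 19S genes -1.08). The others were Psmb4 and Psmc3ip. With median of ratios scaling these Dnmt3-deficient counts were 1 higher and 5 lower. All 6 BMPC libraries lay below all 6 GCB libraries in 7 members (18.1% of all genes), which were Psmb4, Psmc1, Psmd1, Psmd2, Psmd4, Psmd11 and Psmd12. They lay above in 1 member, Psma3 (5.13% of all genes).

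The 3 members that fell in the Dnmt3-sufficient libraries were non-ATPase subunits. Psmd11 fell by 2.15 ± 0.45 (SE), adjusted p = 0.00173, from 85, 78.1 and 96.9 FPKM in GCB to the BMPC values above. Psmd12, a lid subunit, was at 180.1, 199 and 216 FPKM in GCB and 37.8, 105 and 52.9 in BMPC, and fell by 1.72 ± 0.32 (SE), adjusted p = 0.000683. The scaffold subunit Psmd2 was at 213, 184 and 172 FPKM in GCB and 99, 91.1 and 29 in BMPC, and fell by 1.54 ± 0.43 (SE), adjusted p = 0.0118. Groups did not overlap in these genes, but Psmd2 in BMPC replicate 3 was far below the other libraries, and without it the change was -0.98 (adjusted p = 0.0538). In the Dnmt3-deficient libraries Psmd12 was at 192 to 228 FPKM in GCB and 89.9, 95.9 and 78.6 in BMPC (-1.27, adjusted p = 0.00582). There Psmd2 was at 168, 207 and 194 and 31.7, 103 and 51.5 FPKM (-1.75, adjusted p = 0.00462). Psma3, an alpha subunit and the one member with all BMPC libraries above GCB, was at 254, 334 and 303 FPKM in nB, at 436, 401 and 451 for GCB and at 684, 661 and 859.6 for BMPC, and its change from GCB (0.77 ± 0.14 (SE), adjusted p = 0.00075) was under the minimum change.

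The ratio of the 2 complexes in each library shows the same parting. The median core gene was 1.80 to 3.10 times the median 19S gene in nB. It was 1.63 to 1.90 times that gene in GCB and 3.45 to 7.50 times in BMPC. Every BMPC library of both genotypes was thus above every nB and GCB library. Of the BMPC libraries, the 7.50 was Dnmt3-sufficient replicate 3, and the other 5 were at 3.45 to 4.34. Exon length went with these changes. Among all genes with a mean of at least 50 FPKM, the median change from nB to BMPC in the Dnmt3-sufficient libraries was 0.88 for genes of the shortest of 4 exon length classes (up to 1856 bases) and -0.34, -0.78 and -0.82 for the next 3 classes. From GCB to BMPC it was 0.33, -0.75, -1.18 and -0.96. All 8 alpha and 4 of 7 tested beta genes were in the shortest class, as were 5 of 6 ATPase and 3 of 11 non-ATPase genes.

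Within that class and level, 9 of 11 core genes rose from nB to BMPC in the Dnmt3-sufficient libraries (median 1.32), 4 of 8 genes of the 19S particle did (median 0.88), and so did 43.5% of all 982 genes. From GCB to BMPC the medians were 0.43 for the 11 core genes, -0.38 for the 8 genes of the 19S particle and 0.33 for all 982 genes. Over Dnmt3-deficient libraries the same 3 medians were 0.27, -0.87 and 0.06. With only these short genes the ratio of core to 19S medians was 1.69 to 2.84 for nB, 1.46 to 1.61 for GCB and 2.02 to 3.52 for BMPC, so that BMPC still lay above GCB but overlapped nB. In the step from nB to GCB length made a smaller difference, with medians over genes of this level of 0.43, 0.29, 0.27 and -0.15 from the shortest to the longest class. Length was not tested as a part of the core or 19S changes.

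**Figure D3:**
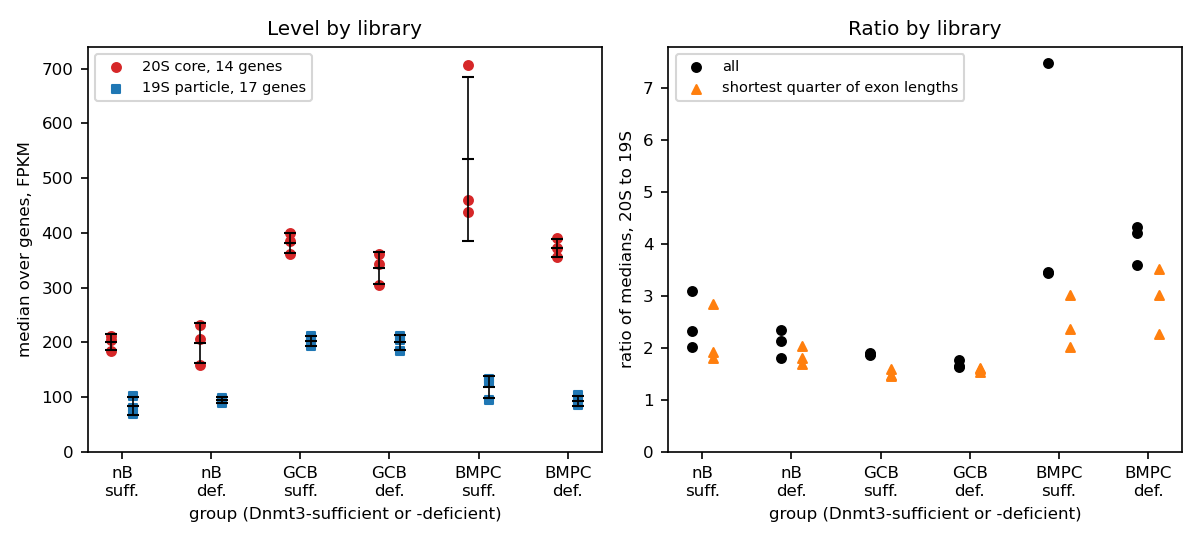
Left, median FPKM over 14 expressed core genes and 17 genes of the 19S particle in each library (points, with mean and SD per group of 3). Right, the ratio of the 2 medians in each library, for all these genes and for the 11 core and 8 19S genes in the shortest class of exon length. BMPC libraries lie highest for all genes, and overlap nB for the short genes.

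The active subunits were compared with the immunoproteasome subunits that replace them. Psmb6 (caspase-like activity) is replaced by Psmb9, Psmb7 by Psmb10 and Psmb5 (chymotrypsin-like activity) by Psmb8. None of the 3 immunoproteasome genes was called in any of the 12 comparisons. Psmb8 was at 576, 546 and 506 FPKM in Dnmt3-sufficient nB, 668, 628 and 662 for GCB and 399, 392 and 340.4 for BMPC. The 3 BMPC values were the lowest of the 9, and the change from GCB to BMPC was -0.79 ± 0.12 (SE), adjusted p = 0.000132, under the minimum. Psmb5 was at 109, 181 and 129 FPKM in nB, at 243, 249.2 and 248 for GCB, and at 261, 279 and 251 for BMPC. These BMPC values lay just above those of GCB, and with the Dnmt3-deficient libraries the cell types overlapped (189 to 249.2 FPKM for GCB, 191 to 303 for BMPC). The change from nB to BMPC was 0.94 (adjusted p = 0.00285), under the minimum.

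Over both genotypes the FPKM ratio of Psmb5 to Psmb8 was 0.190 to 0.372 for nB, 0.325 to 0.397 for GCB and 0.477 to 0.739 for BMPC. BMPC libraries did not overlap either other cell type. The mean log2 ratio in BMPC exceeded that in nB by 1.06 and that in GCB by 0.80, each with p = 0.005 and an adjusted p = 0.0113, by an exact two-sided permutation test of cell type labels within genotypes (6 against 6 libraries, Benjamini-Hochberg over 9 comparisons). Here 0.005 is the smallest p that the 400 orders can give. For nB and GCB the difference of 0.27 did not pass (exact permutation p = 0.14, adjusted p = 0.163).

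The ratio of Psmb7 to Psmb10 was 0.109 to 0.154 for nB, 0.464 to 0.628 for GCB and 0.487 to 1.45 for BMPC. In log2 it was higher by 2.03 in GCB and by 2.38 in BMPC than in nB (each exact permutation p = 0.005, adjusted p = 0.0113), with no overlap. GCB and BMPC did not differ beyond their spread (0.35, exact permutation p = 0.315). For Psmb6 to Psmb9 the ratio was 0.860 to 1.37 for nB, 1.02 to 1.44 for GCB and 1.06 to 3.89 for BMPC. BMPC was higher than nB by 0.97 (exact permutation p = 0.01, adjusted p = 0.018) and than GCB by 0.79 (exact permutation p = 0.02, adjusted p = 0.03), though 1 BMPC library, Dnmt3-deficient replicate 2, lay within the range of both. The difference from GCB did not pass without GCB Dnmt3-sufficient replicate 1, 2 or 3, GCB Dnmt3-deficient replicate 2 or BMPC Dnmt3-sufficient replicate 1 (adjusted p = 0.0525 to 0.06 by the same permutation test).

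**Figure D4:**
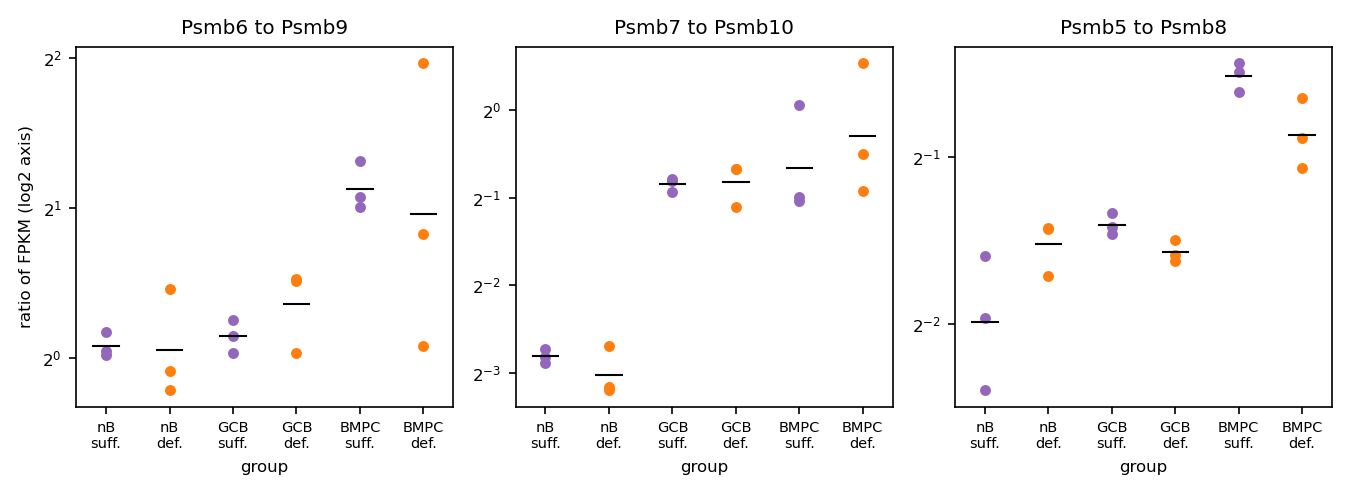
FPKM ratio of each active core subunit to the immunoproteasome subunit that replaces it, on a log2 axis, in each library (points; purple Dnmt3-sufficient, orange Dnmt3-deficient) with the mean of the log2 ratio as a bar. The Psmb5 to Psmb8 ratio is highest in the 6 BMPC libraries, and the Psmb7 to Psmb10 ratio is lowest in the 6 nB libraries.

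Of 12 assembly, activator and inhibitor genes 1 passed a test between cell types. Psmg1 to Psmg4 are chaperones of the alpha ring, and Psmd5, Psmd9 and Psmd10 are chaperones of the 19S base. The one that passed was Psmg3, from 48.8, 38.3 and 45.6 FPKM in Dnmt3-sufficient nB to 194, 75.2 and 117 in BMPC (1.42, adjusted p = 0.00668). Its Dnmt3-deficient values were 31, 37.9 and 34.6 in nB and 99.3, 58.9 and 169.9 in BMPC (1.51, adjusted p = 0.00454). Several assembly factors were at 0 in single BMPC libraries. Psmd5 was at 53.4, 108 and 0 FPKM in Dnmt3-sufficient and 18, 0 and 81.5 in Dnmt3-deficient BMPC, against 38.4 to 101 in nB. Spread among BMPC libraries was therefore wide, and a lack of calls there does not show equal levels.

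Psme1 and Psme2 form the PA28 activator, which caps the core without ATP and is induced by interferon. Their summed FPKM was 580.1 to 649 for nB, 577 to 719 for GCB and 464 to 1300 for BMPC, with overlap of all 3 cell types. For Psme2 the change from nB to Dnmt3-sufficient BMPC was 0.99 ± 0.20 (SE), adjusted p = 0.0011, just under the minimum, from 253, 258 and 235 to 436, 405 and 684 FPKM. Psme3, the nuclear activator, Psme4, the activator known from testis, and Psmf1, the inhibitor of the core, were at 39.8 FPKM or less in every library and passed no test between cell types.

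The genotypes were compared within each cell type to ask which genes differ with deletion of Dnmt3a and Dnmt3b. Only Dnmt3-deficient mice carried the Cre allele, so its presence and the deletion cannot be told apart. In nB 0 of 45 members were called in either direction, against 0.0521% of all genes higher and 0 lower, and in GCB 0 of 45 members were called, as were 0 genes in all. An unadjusted p under 0.05 was found for 2 members in nB (2.71% of all genes) and 0 in GCB (1.08%), and limma voom on the reads called 0 in both. The smallest p in nB was that of Psmc6, with 0.63 (95% interval 0.18 to 1.07, adjusted p = 0.948). All 3 Dnmt3-deficient nB libraries lay above the Dnmt3-sufficient ones in 2 members (Psmc6 and Psmd3, with 4.66% of all genes) and below in 3 (Psmb7, Psmd7 and Psmg3, with 4.17%). In GCB they lay above in 1 (Psme1, with 5.58%) and below in 6 (Psma4, Psmb3, Psmb7, Psmc5, Psmd11 and Psmg2, with 5.05%). The smallest p in GCB was that of Psma8 (0.93, adjusted p = 1), which had 0 reads in the 3 Dnmt3-sufficient libraries and 0, 34 and 16 in the Dnmt3-deficient ones.

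In BMPC 0 members rose and 3 fell in the Dnmt3-deficient libraries, against 1.34% and 2.65% of all genes, with a median change of -0.39 over the members and -0.05 over all genes tested. The change was negative in 37 of 45 members and in 15 of 15 core genes (median -0.38). These 15 include Psma8, which had 13 reads in Dnmt3-sufficient BMPC replicate 1 and 0 in all other BMPC libraries. In GCB 35 of 45 members had a negative change, with a median of -0.15. The sum over all members was 8583 to 8806 FPKM in the 3 Dnmt3-deficient BMPC libraries and 10599 to 12539 in the 3 Dnmt3-sufficient ones. These sums were apart on the deposited scale only. The size factors of median of ratios scaling were 0.892 to 0.954 in the Dnmt3-deficient and 0.988 to 1.09 in the Dnmt3-sufficient BMPC libraries. In 12 members all 3 Dnmt3-deficient libraries lay below all 3 Dnmt3-sufficient ones, as in 7.31% of all genes, and in 0 members above (3.02%). With median of ratios scaling the median was -0.21, and 13 of 15 core genes were negative.

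The 3 members that fell were 19S genes. Psmd3, a lid subunit, was at 2.33, 3.23 and 3.6 FPKM in Dnmt3-sufficient BMPC and 0, 0 and 0.113 in Dnmt3-deficient BMPC, which is 20, 48 and 51 reads against 0, 0 and 1. It fell by 1.95 ± 0.40 (SE), adjusted p = 0.0104, at the lowest level of any 19S gene. The size of this change depends on the scale, and was -4.83 with voom on recovered reads. Psmd4, a receptor for ubiquitin, fell from 89.3, 108 and 80.4 to 41.3, 21.2 and 48.2 FPKM, by 1.38 ± 0.30 (SE), adjusted p = 0.0135. Psmc5, an ATPase, fell from 206, 227 and 258 to 73.4, 151 and 132 FPKM, by 1.01 ± 0.24 (SE), adjusted p = 0.024. No library of one genotype reached the range of the other in these genes. In mm9 (GENCODE vM1) Psmd3 lies at chr11:98543868-98557293 and Psmc5 at chr11:106117468-106124434 on the plus strand, and Psmd4 at chr3:94836616-94846536 on the minus strand. The alpha subunit Psma2, at 736.4, 653 and 790.5 FPKM in Dnmt3-sufficient and 403, 256 and 498 in Dnmt3-deficient BMPC, missed the minimum change (-0.96 ± 0.22 (SE), adjusted p = 0.0219). The largest negative change of any member was that of Psmc3ip (-3.42), which was not called.

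The 3 calls were not stable. With only the BMPC libraries in the fit, or with a weight per library, 0 members were called. In the first of these fits the changes cannot differ from those above, as each group keeps its own mean. The limma adjusted p there was 0.709 for Psmd4, 0.735 for Psmc5 and 0.647 for Psmd3. With a weight per library the change was -1.29 for Psmd4 (adjusted p = 0.502) and -1.08 for Psmc5 (adjusted p = 0.514). With voom 1 was called. Without Dnmt3-deficient replicates 1 and 2 that group was replicate 3 alone, and the median change over the members was -0.47. Without single BMPC libraries the count was 2 to 6 (5 when Dnmt3-sufficient replicate 2 or its Dnmt3-deficient namesake was left out, 6 when Dnmt3-deficient replicate 1 or 3 was). The Dnmt3-deficient BMPC libraries differed in other ways too. They held 1355231 to 2265945 reads against 2196198 to 3803197, and Jchain took 6.26% to 9.80% of their reads against 3.40% to 5.38%. Summed FPKM of 4 erythroid genes was 149 to 797 against 1160 to 2194, and that of 6 proliferation markers 351 to 574 against 499 to 620. Their part in the lower proteasome values was not tested.

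The difference between cell types did not differ detectably between genotypes. The interaction called 0 members for GCB with nB (as it did 0 genes in all), 0 for BMPC with nB (0.165% higher and 0.391% lower) and 0 for BMPC with GCB (0.148% and 0.278%). An unadjusted p under 0.05 was found for 1, 12 and 7 members, against 1.77%, 11.9% and 9.43% of all genes, and limma voom called 0, 1 and 1. The smallest p for both BMPC comparisons was that of Psmd3, with -2.45 ± 0.57 (SE) against nB (adjusted p = 0.0635) and -2.35 ± 0.57 (SE) against GCB (adjusted p = 0.102), in limma over all genes. With a pseudocount of 0.1 the same changes were -5.21 and -5.09. Psmd3 did pass in 7 of 29 alternatives for nB and in 4 of 29 for GCB. Without a single BMPC library the interaction with nB called up to 3 members (1 without Dnmt3-sufficient replicate 1 or 2, 2 without Dnmt3-deficient replicate 1 and 3 without Dnmt3-deficient replicate 3), and that with GCB up to 2 (1 without Dnmt3-sufficient replicate 1 and 2 without Dnmt3-deficient replicate 3). For GCB with nB the smallest p was that of Psmc6 (-0.66 ± 0.30 SE, adjusted p = 1).

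**Figure D5:**
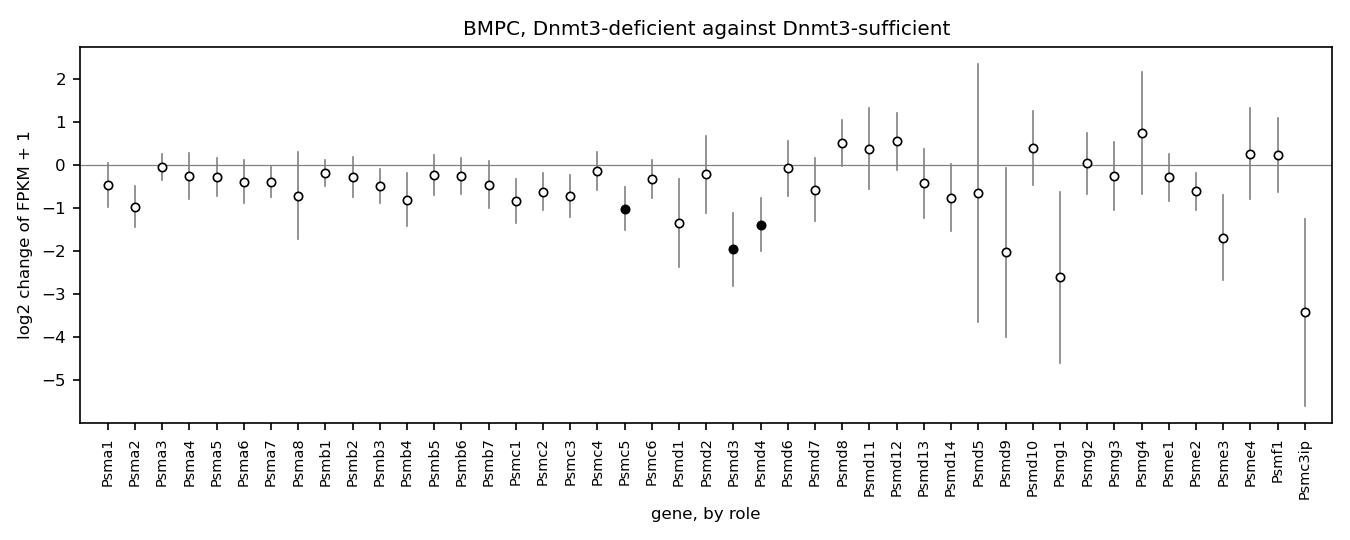
Change of each tested member in BMPC, Dnmt3-deficient minus Dnmt3-sufficient, on the log2(FPKM + 1) scale, with 95% intervals from limma. Genes are ordered by role, and filled points passed the test. All 15 core genes lie below 0 (13 of 15 with median of ratios scaling), Psma8 on the reads of 1 library, and the 3 filled points are Psmc5, Psmd3 and Psmd4.

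Other genes of the pathway were counted by list. Of 10 tested further subunits and associated factors, 3 rose from nB to Dnmt3-sufficient GCB. They were Pomp, the maturation factor of the core (1.09, adjusted p = 0.00471), Txnl1, a thioredoxin bound to the 19S lid (1.7, adjusted p = 0.0292), and the deubiquitinase Uchl5 (1.45, adjusted p = 0.012). From nB to Dnmt3-sufficient BMPC 3 rose (Pomp 1.31, Txnl1 2.94 and Shfm1, the small lid subunit, 1.17) and 2 fell (the ubiquitin receptor Adrm1 -1.55 and the ligase Ube3c -1.61). From GCB to BMPC 2 fell in each genotype, Uchl5 (-1.61 and -2.25) and its partner Adrm1 (-1.65 and -1.46).

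Of 4 genes of transcription factors and their processing, Nfe2l1, which is known to induce proteasome genes, fell from nB to Dnmt3-sufficient BMPC (-2.29 ± 0.84 (SE), adjusted p = 0.0396), and Ddi2, the protease that activates it, rose (1.40 ± 0.52 (SE), adjusted p = 0.0425). Nfe2l2, a related factor, passed no test between cell types. With Dnmt3 deficiency the change of Nfe2l1 was -1.65 (adjusted p = 0.129), that of Ddi2 0.56 (adjusted p = 0.418), and Ngly1, which removes glycans from Nfe2l1, fell by 2.27 ± 0.82 (SE), adjusted p = 0.0371. Of 13 genes of ubiquitin supply and delivery, 2 rose from nB to BMPC in both genotypes, the ubiquitin genes Ubb (1.24 and 1.5) and Rps27a (1.38 and 1.04). In the Dnmt3-deficient libraries 2 of the 13 fell in this step, and in the Dnmt3-sufficient ones 0 did. From GCB to BMPC 1 of the 13 fell in the Dnmt3-sufficient and 4 in the Dnmt3-deficient libraries, and 1 rose in each. The unfoldase Vcp rose from nB to Dnmt3-sufficient GCB (1.12, adjusted p = 0.0134) and fell from GCB to BMPC in both genotypes (-1.85 and -1.37). None of these 30 tested genes outside the members was called between genotypes in any cell type.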

How the data were processed

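RNA of 5000 sorted cells per sample was amplified without molecular identifiers. Per the labels and the study's methods, the authors aligned trimmed reads to mm9 with TopHat, counted them on UCSC known genes with summarizeOverlaps, and used R 3.2.2 and edgeR 3.12.1 for their own comparisons. Whether counting used strand is not given in the sources used here. The values deposited by the authors are FPKM in 18 libraries (6 groups of 3). The 54 columns of the authors' own comparisons (fold changes and false discovery rates) were not used, and 92 genes had no symbol. The locus of the Cre allele is not reported here.

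From the deposited FPKM and exon lengths, whole reads were recovered (100% of values within 0.01 of a whole number). Genes above 1 FPKM in at least 2 libraries were fitted as log2(FPKM + 1) in limma 3.58.1 (R 4.3.3), with 1 mean per group over all 18 libraries, an intensity trend and Benjamini-Hochberg adjustment over 11522 genes. The pseudocount of 1 understates changes of low genes. A gene was called where its adjusted p was at most 0.05 and it moved by 1 or more. The fit was also run on simulated data with the same variation between libraries in all groups, whereas BMPC libraries here varied more than the others. Exon lengths were those of the deposited table. Ratios were compared in Python 3.11.15 by exact permutation.

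Members, pathway lists and markers were chosen with earlier results of these data known. Full statistics were given for the 5 largest rises and 5 largest falls among members called between cell types in Dnmt3-sufficient libraries, for each member called between genotypes, and otherwise for the member with the smallest p. Other members were named after their values were seen. Alternatives changed the pseudocount, filter, scaling, samples fitted, thresholds and library weights, added sex as a covariate, used voom on recovered reads, or left out each library in turn.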

Additional observations from a re-analysis of the deposited data

How the results depend on the processing

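None of the changes chosen for full statistics, and no ratio, reversed its direction in the alternatives run. Many alternatives leave the size of a given change as it was. Among the 15 core genes, 2 turned from lower to higher in the BMPC genotype comparison with median of ratios scaling. Of 638 values of the chosen changes under alternatives, 587 kept their side of the threshold, 40 lost it and 11 gained it. With a pseudocount of 0.1, with no filter on low values, or with voom on recovered reads, the interaction with BMPC versus nB and that with BMPC versus GCB each had 1 member called. With voom the genotype comparison in BMPC had 1, and with only the libraries compared, a quality weight per library or an adjusted p of 0.01 it had 0. The Dnmt3-deficient BMPC versus GCB comparison had 6 members with median of ratios scaling or with only the libraries compared, and the Dnmt3-deficient GCB versus nB comparison had 14 with only the libraries compared or quality weights. Without a minimum change the GCB versus nB counts were 24 (Dnmt3-sufficient) and 20 (Dnmt3-deficient), against 15.4% and 14.3% of all genes called. That of Dnmt3-sufficient BMPC versus GCB was 8 (4 higher and 4 lower), against 29.7% of all genes called. An alternative chosen after seeing the data left out both BMPC libraries under 2000000 reads, so that Dnmt3-deficient BMPC was replicate 3 alone. The median change over the members was then 0.46 for Dnmt3-deficient BMPC versus nB and -0.47 for the genotype in BMPC. For the interactions of BMPC with nB and with GCB it was -0.44 and -0.33. The cause of these differences between settings was not tested.

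Leaving out 1 library at a time, the counts ranged from 13 to 17 and from 5 to 15 for GCB versus nB in Dnmt3-sufficient and Dnmt3-deficient libraries, from 16 to 22 and from 9 to 16 for BMPC versus nB, and from 3 to 4 and from 8 to 12 for BMPC versus GCB. The genotype counts ranged from 0 to 0 in nB and GCB and from 2 to 6 in BMPC, and the interaction counts from 0 to 0 (GCB with nB), 0 to 3 (BMPC with nB) and 0 to 2 (BMPC with GCB). The log2 ratio of Psmb6 to Psmb9 between BMPC and GCB ranged from 0.61 to 0.98.

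Median of ratios scaling moved the median change of all genes from -0.84 to -0.67 (Dnmt3-deficient BMPC versus nB) and from -0.73 to -0.54 (versus GCB). The GCB labels carry pair names shared by the genotypes (F2, F3 and M1), and the correlations of the pairs' deviations were -8.06e-05, -0.0171 and 0.0257, none over 0.1, and they were not treated as pairs. With these names as a replicate block the genotype comparison in GCB had 0 members called. Depth was lowest in BMPC, where genes at 0 in single libraries left wide intervals.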
